A study of Mus musculus with 25 samples.

Results

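The genes described here are 10 inhibitory checkpoint genes of the mouse, 7 of them receptors (Pdcd1, Lag3, Havcr2, Tigit, Cd96, Btla and Vsir) and 3 of them ligands (Cd274, Pdcd1lg2 and Lgals9). They were taken by symbol from a count table of 55450 genes, and all 10 were found and passed the filter on low counts that left 18031 genes for testing. RNA had been sequenced from 25 melanomas grown from the implanted cell line B2905, also named M4, in C57BL/6 mice, with treatment begun at an average size of 75 mm3. Of these, 20 tumours came from mice given an antibody against CTLA-4 and 5 from mice given an isotype IgG2b antibody, each at 10 mg/kg, over 2 weeks. The anti-CTLA-4 tumours had been sorted by their course in the 10 to 11 days after the last dose, into 8 responders that shrank, 6 stable tumours and 6 non-responders that went on growing. The IgG2b tumours are called controls. All 25 tumours thus share 1 cell line and 1 host strain, no group carries another allele or agent in the labels, and each tumour has 1 library. The untreated mice of the design were not analysed here.

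Checkpoint receptors sit on T cells and NK cells and dampen their activation once a ligand binds. PD-1 (Pdcd1) recruits phosphatases that remove phosphate from the T cell receptor and CD28 pathways, and its ligands PD-L1 (Cd274) and PD-L2 (Pdcd1lg2) are carried by myeloid cells, dendritic cells and tumour cells, where interferon gamma raises them. CTLA-4, the target of the antibody used here, acts on the same cells through another route, by competing for the ligands of CD28, and antibodies against PD-1 and CTLA-4 are given together in melanoma.

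Library depth and makeup differed between the groups, as follows. The total count ran from 8.765 to 34.311 M per tumour. Protein-coding genes took 82.9 to 89.2% of counts in every control, non-responder and stable tumour, but 23.8 to 87.0% in responders (median 68.8%), where responder 5 alone lay in the range of the other groups. Numbers in the library names follow the groups (controls 1 to 5, non-responders 6 to 11, responders 12 to 19, stable tumours 20 to 25), so their order and group cannot be told apart. The summed level of 5 melanocyte lineage genes (Mlana, Dct, Pmel, Mitf, Sox10) was 7195 to 12207 CPM in controls and 464 to 10003 CPM in non-responders, against 262 to 572 CPM in responders and 223 to 369 CPM in stable tumours. The summed level of 9 T cell genes was 9.42 to 28.1 CPM in controls and 25.0 to 205 CPM in non-responders, against 89.0 to 261 CPM in responders and 149 to 236 CPM in stable tumours. The 6 macrophage and monocyte genes summed to 422 to 831 CPM in controls and 774 to 7445 CPM in non-responders, against 2108 to 9324 CPM in responders and 5374 to 8568 CPM in stable tumours. Levels are counts per M counts (CPM) of a library scaled by the trimmed mean of M-values (TMM). No defining gene of these 3 lists was at 0 in a whole group.

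Across the 3 comparisons with controls, 9 of the 10 checkpoint genes rose in every outcome group, and the exception was Lgals9. In responders against controls 10 of 10 were called (adjusted p under 0.05, edgeR's quasi-likelihood test with Benjamini-Hochberg adjustment over all genes), 9 higher and 1 lower, where 65.0% of all genes were called and 36.1% were called higher. In stable tumours against controls 9 were called, all higher, with 41.8% of all genes called and 22.2% called higher. In non-responders against controls 9 were called, all higher, while only 13.9% of all genes were called and 10.6% called higher. These 3 comparisons share the 5 control tumours. When only the 11 tumours of the last comparison entered the fit, 5 of the 9 remained called, and Pdcd1, Havcr2, Tigit and Btla did not (adjusted p = 0.0555 to 0.0637). The median log2 fold change of the 10 genes was 2.79, 2.71 and 1.81 in the same order, beside 0.16, 0.02 and 0.04 over all genes tested. In bulk tissue a change in the number of cells carrying a transcript and a change in transcript per cell cannot be told apart.

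Between outcome groups the checkpoint genes separated less. In responders against non-responders 6 of 10 were called, 5 higher (Lag3, Havcr2, Tigit, Cd274 and Pdcd1lg2) and 1 lower (Lgals9), which is close to the 48.9% of all genes called in that comparison, while the 5 called higher stand beside 25.2% of all genes. In stable tumours against non-responders 3 were called, all higher (Havcr2, Vsir and Cd274), beside 14.9% of all genes called and 7.08% called higher. In responders against stable tumours 1 was called, Lgals9, beside 38.2% of all genes. PD-1 itself was called in none of the 3. No checkpoint gene separated 2 outcome groups without overlap, where 5.01%, 5.01% and 0.715% of all genes did in the order given. Non-responders and controls overlapped for all 10 genes too, beside 4.08% of all genes that did not, while 8 genes of responders (all but Btla and Lgals9) and 9 of stable tumours (all but Lgals9) lay wholly above controls, beside 14.9% and 18.4% of all genes. With each library's protein-coding share in the model, Havcr2 alone of the 6 remained called in responders against non-responders (log2 1.44 ± 0.42 (SE), adjusted p = 0.0369, edgeR), as did 1810 of the 18031 genes. Only responder 5 overlapped the other groups in that share, so this model can hardly tell the share from the group. With only protein-coding genes in the filter and scaling, all 6 remained called. Vsir was then called higher as well (0.61, adjusted p = 0.0468, edgeR), which made 7 of 10. Whether library makeup has a part in these calls was not tested further.

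**Figure D1:**
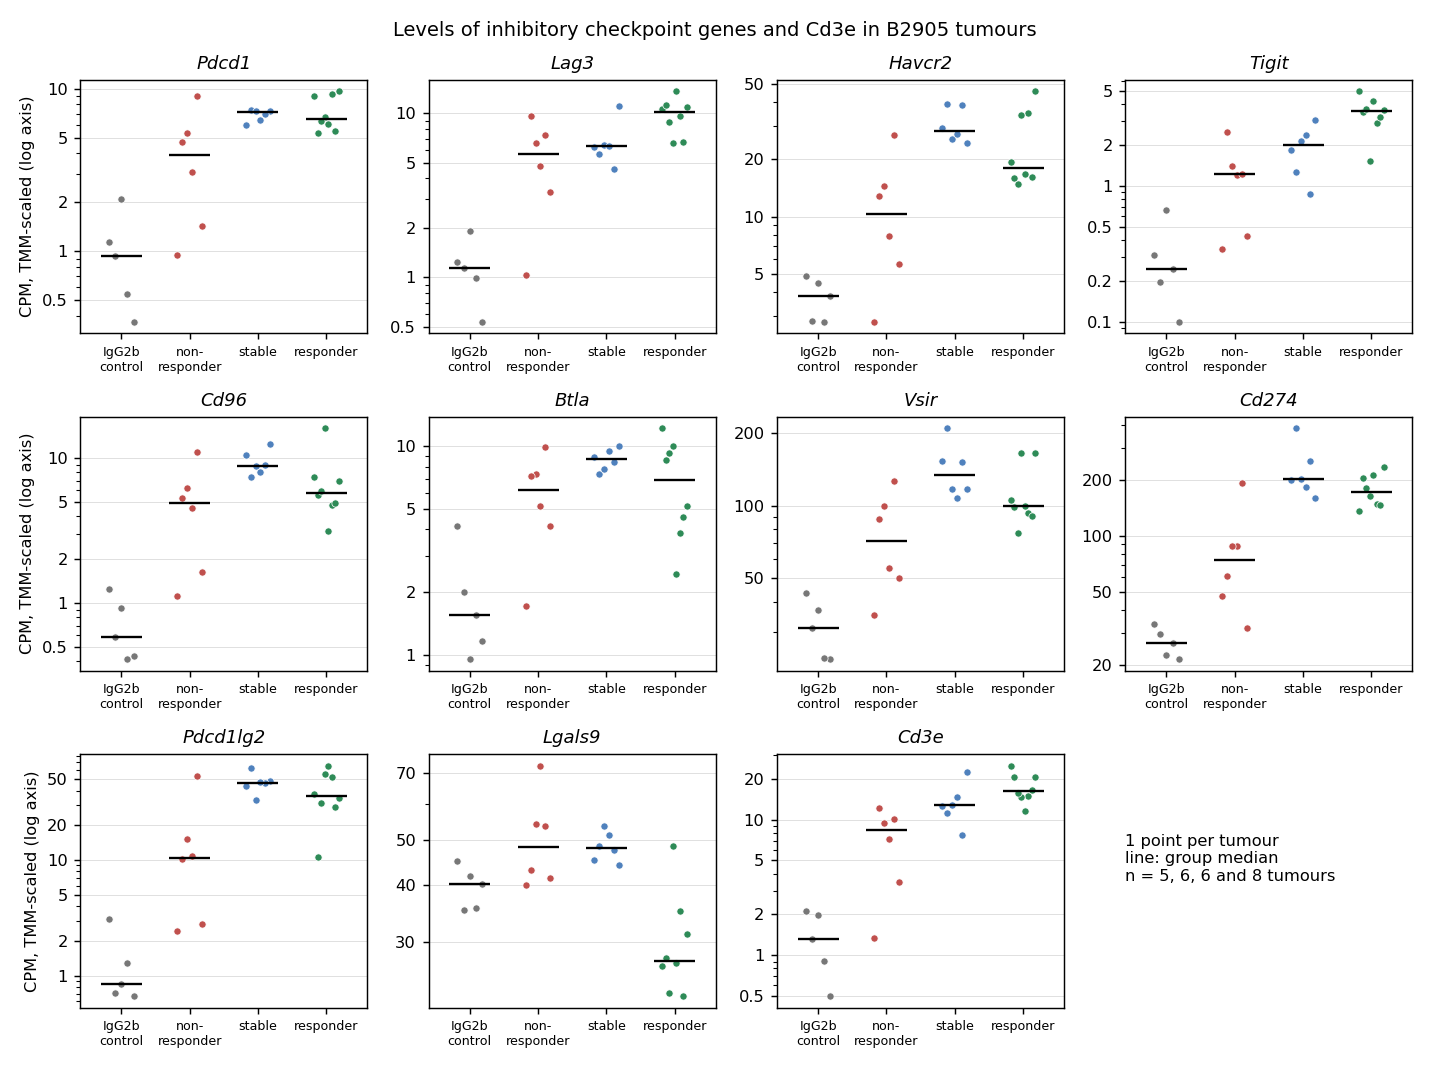
Level of each checkpoint gene and of Cd3e in every tumour (CPM on a log axis, 1 point per tumour, line at the group median; 5 controls, 6 non-responders, 6 stable tumours, 8 responders). Stable tumours and responders lie above controls for every gene but Lgals9 and, for 2 responders, Btla, and non-responders spread between them.

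Pdcd1 (chromosome 1, 94038305 to 94052553, minus strand, GRCm38), which encodes PD-1, was at 0.367, 2.10, 0.939, 0.548 and 1.14 CPM in controls 1 to 5. It ran from 0.945 to 9.02 CPM in non-responders (median 3.89), from 5.95 to 7.41 CPM in stable tumours (median 7.14) and from 5.33 to 9.63 CPM in responders (median 6.50). Every responder and every stable tumour lay above every control, while 2 of 6 non-responders lay within the control range and 5 of 6 lay below every stable tumour. Non-responder 6, at 9.02 CPM, lay above every stable tumour. Pdcd1 was 7.10-fold higher in responders than in controls (log2 2.83 ± 0.45 (SE), adjusted p = 1.1e-05, edgeR), 6.77-fold higher in stable tumours (adjusted p = 3.6e-05) and 4.03-fold higher in non-responders (adjusted p = 0.00345). Responders exceeded non-responders by 0.82 ± 0.38 on the log2 scale (adjusted p = 0.0747), which did not pass the threshold, and without non-responder 6 the difference was 1.22 with an adjusted p of 0.0105. It also passed in DESeq2 (0.83, adjusted p = 0.0463) and in the authors' RPKM with limma (1.23, adjusted p = 0.00848). Stable tumours exceeded non-responders by 0.75 ± 0.40 (adjusted p = 0.212), and by 1.15 with an adjusted p of 0.0341 without non-responder 6. In the remaining pair, responders and stable tumours differed by 0.07 ± 0.37 (adjusted p = 0.899).

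Lag3 (chromosome 6, 124904361 to 124911705, minus strand) encodes a CD4-related receptor that binds MHC class II. Its level was 0.533, 1.92, 1.13, 0.986 and 1.24 CPM in the controls, 1.03 to 9.61 CPM in non-responders (median 5.67), 4.57 to 11.1 CPM in stable tumours (median 6.27) and 6.56 to 13.6 CPM in responders (median 10.1). Of 8 responders 4 lay above every non-responder and none lay below the non-responder range, and 1 of 6 non-responders lay within the control range. Lag3 was 8.37-fold higher in responders than in controls (log2 3.06 ± 0.40, adjusted p = 1.2e-06, edgeR), 5.75-fold higher in stable tumours and 4.68-fold higher in non-responders. It was 1.79-fold higher in responders than in non-responders (log2 0.84 ± 0.33, adjusted p = 0.0408), a call that ended when any 1 of non-responders 1, 2 and 3 or responders 1, 2, 6 and 7 was left out (0.0577 to 0.0916). Stable tumours differed from non-responders by 0.30 ± 0.35 (adjusted p = 0.619). The difference between responders and stable tumours was called when only those 14 tumours entered the fit (0.58, adjusted p = 0.0465, edgeR).

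Havcr2 (chromosome 11, 46454935 to 46481255, plus strand) encodes TIM-3, found on exhausted T cells and also on dendritic cells and macrophages. Controls held 3.83, 4.46, 2.82, 2.79 and 4.86 CPM, non-responders 2.79 to 26.8 CPM (median 10.4), stable tumours 24.3 to 39.0 CPM (median 28.1) and responders 14.9 to 45.6 CPM (median 18.0). Of 6 non-responders 5 lay below every stable tumour, and non-responder 6 at 26.8 CPM was the exception. Responders split into 5 tumours below every stable tumour and 3 at 34.3 CPM or more. Havcr2 rose in both comparisons with non-responders, with log2 fold changes of 1.08 ± 0.36 in responders (adjusted p = 0.0165, edgeR) and 1.38 ± 0.38 in stable tumours (adjusted p = 0.0171). With only the 2 groups in the fit the first was 1.09 with an adjusted p of 0.0513. Against controls it was 6.63-fold, 8.17-fold and 3.14-fold higher in responders, stable tumours and non-responders.

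Tigit (chromosome 16, 43648867 to 43664146, minus strand) encodes a receptor that competes with CD226 for the poliovirus receptor. It rests on 3 to 18 counts in a control library, at 0.09999, 0.663, 0.196, 0.247 and 0.310 CPM. Non-responders held 0.344 to 2.497 CPM (median 1.22), stable tumours 0.870 to 3.06 CPM (median 2.00) and responders 1.53 to 5.00 CPM (median 3.598). Of 8 responders 7 lay above every non-responder and 6 above every stable tumour, and responder 5, at 1.53 CPM, was the lowest. Tigit was 2.90-fold higher in responders than in non-responders (log2 1.53 ± 0.41, adjusted p = 0.00447, edgeR). The difference between responders and stable tumours was 0.84 ± 0.40 (adjusted p = 0.0978), and without responder 5 it was 0.96 with an adjusted p of 0.0492. It also passed with only those 2 groups in the fit (0.88, adjusted p = 0.0380) and in the authors' RPKM with limma (1.15, adjusted p = 0.0329). Stable tumours and non-responders differed by 0.69 ± 0.42 (adjusted p = 0.288). With the protein-coding share in the model the responder difference from non-responders was 1.13 ± 0.51 (adjusted p = 0.137).

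Cd96 (chromosome 16, 46035657 to 46120251, minus strand) encodes another receptor for the poliovirus receptor, on T cells and NK cells. It was at 0.433, 0.921, 0.587, 0.411 and 1.24 CPM in the controls, 1.12 to 11.0 CPM in non-responders (median 4.91), 7.36 to 12.6 CPM in stable tumours (median 8.87) and 3.12 to 16.0 CPM in responders (median 5.78). Of 8 responders 6 lay below every stable tumour, and responder 5, at 16.0 CPM, lay above all of them. Against controls Cd96 was 13.2-fold higher in stable tumours (log2 3.72 ± 0.51, adjusted p = 4.3e-06, edgeR), 9.71-fold higher in responders and 7.00-fold higher in non-responders. It was called in no comparison of outcome groups, where responders minus non-responders gave 0.47 ± 0.40 (adjusted p = 0.327), stable minus non-responders 0.91 ± 0.42 (adjusted p = 0.148) and responders minus stable tumours -0.44 ± 0.39 (adjusted p = 0.378). Without non-responder 6 the stable difference was 1.32 with an adjusted p of 0.0241. In the authors' RPKM with limma that difference was 1.11 and passed as well (adjusted p = 0.0480).

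Btla (chromosome 16, 45224315 to 45257670, plus strand) encodes a receptor for the herpesvirus entry mediator, carried by B cells, T cells and dendritic cells. Its levels were 1.17, 0.958, 2.00, 1.56 and 4.14 CPM in the controls, 1.72 to 9.90 CPM in non-responders (median 6.20), 7.36 to 10.0 CPM in stable tumours (median 8.66) and 2.45 to 12.2 CPM in responders (median 6.89). Responders 1 to 4 held 2.45, 5.19, 3.87 and 4.61 CPM, all below every stable tumour, and responders 5 to 8 held 10.1, 12.2, 8.59 and 9.31 CPM. Responders 1 and 3 lay within the control range, which made Btla 1 of 2 checkpoint genes, with Lgals9, whose responders overlapped controls. It was 4.44-fold higher than in controls in stable tumours (adjusted p = 0.00025, edgeR), 3.63-fold in responders (adjusted p = 0.000389) and 3.04-fold in non-responders (adjusted p = 0.0115). The last call ended in the authors' RPKM (log2 1.38, adjusted p = 0.0685, limma). The responder difference from non-responders, 0.26 ± 0.36 (adjusted p = 0.562), was the smallest in size of the 10 genes.

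Vsir (chromosome 10, 60346851 to 60372684, plus strand) encodes VISTA, which acts both as a ligand on myeloid cells and as a receptor on T cells. It held 23.1, 36.9, 31.2, 23.4 and 43.6 CPM in the controls, 35.1 to 127 CPM in non-responders (median 71.5), 108 to 210 CPM in stable tumours (median 135) and 77.3 to 166 CPM in responders (median 99.6). Of 6 non-responders 5 lay below every stable tumour, and 6 of 8 responders did too. Vsir rose in stable tumours against non-responders (log2 0.91 ± 0.26, adjusted p = 0.0233, edgeR), and leaving out non-responder 1, 2 or 3 or stable tumour 3 ended that call (0.0557 to 0.0731). Responders minus non-responders gave 0.57 ± 0.25 (adjusted p = 0.0621), and 0.78 with an adjusted p of 0.0141 without non-responder 6. That difference also passed with protein-coding genes only (0.61, adjusted p = 0.0468, edgeR) and in DESeq2 (0.58, adjusted p = 0.0418). Against controls it was 3.55-fold, 4.52-fold and 2.40-fold higher in responders, stable tumours and non-responders.

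Read per tumour, the same libraries stood at the ends of the non-responder range for most of the genes. Non-responder 6 was the highest of its group for 7 of 10 checkpoint genes and non-responder 3 the lowest for 9 of 10. In controls, control 5 was highest for 7 and control 1 lowest for 6. No such library was seen among responders, where the most often highest tumours, responders 2 and 5, led for 3 genes each. Without non-responder 6, 8 of 10 genes were called in responders against non-responders and 6 of 10 in stable tumours against non-responders.

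**Figure D2:**
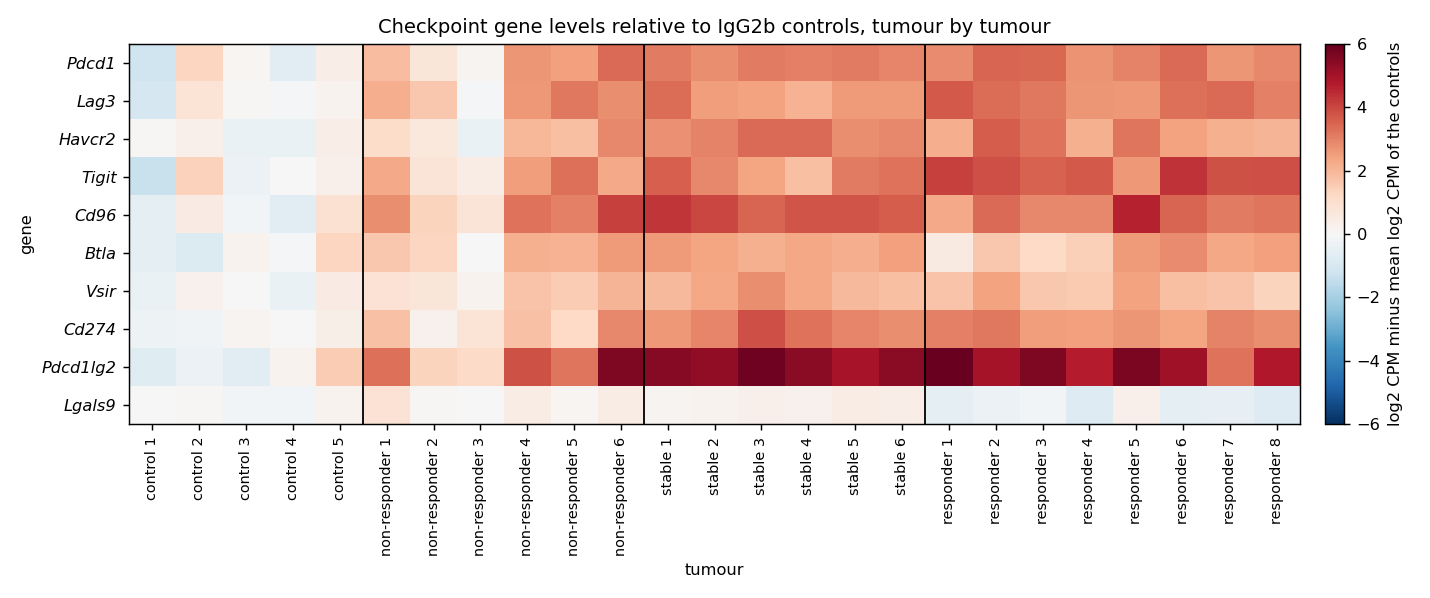
Log2 CPM of each checkpoint gene in each of the 25 tumours, minus the mean log2 CPM of the 5 controls (red higher, blue lower; black lines divide the groups). Non-responder 3 is the lowest of its group in 9 rows and non-responder 6 the highest in 7, and Lgals9 lies below every control in 7 of 8 responders.

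Cd274 (chromosome 19, 29367455 to 29388095, plus strand), which encodes PD-L1, was at 21.6, 22.7, 29.4, 26.4 and 33.5 CPM in the controls. It was at 88.8, 31.8, 47.2, 88.0, 60.7 and 192 CPM in non-responders 1 to 6, at 161, 202, 382, 256, 203 and 183 CPM in stable tumours, and at 213, 237, 150, 147, 165, 136, 206 and 182 CPM in responders. Apart from non-responder 6, every non-responder lay below every stable tumour and every responder, and non-responder 2 was the one within the control range. Cd274 rose in responders against non-responders (log2 1.08 ± 0.28, 2.12-fold, adjusted p = 0.00375, edgeR) and in stable tumours (log2 1.45 ± 0.30, 2.73-fold, adjusted p = 0.00411). The stable difference stayed called under every alternative tried, with adjusted p from 6.7e-05 to 0.0338, and the responder difference under all but the protein-coding share in the model (0.98 ± 0.35, adjusted p = 0.0720). Against controls Cd274 was 6.72-fold, 8.67-fold and 3.18-fold higher in responders, stable tumours and non-responders.

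Pdcd1lg2 (chromosome 19, 29410919 to 29471161, plus strand), which encodes PD-L2, starts 22823 bases past the end of Cd274. It had the widest range of the 10 genes, 98.8-fold from the lowest to the highest tumour. Controls held 0.667, 0.847, 0.704, 1.29 and 3.10 CPM, non-responders 10.9, 2.81, 2.45, 15.3, 10.2 and 53.3 CPM, stable tumours 33.4 to 62.5 CPM (median 46.8) and responders 10.6 to 65.8 CPM (median 36.0). Non-responder 6 lay among the stable tumours, the other 5 below all of them. Pdcd1lg2 was 30.5-fold higher than in controls in responders (log2 4.93 ± 0.69, adjusted p = 2.9e-06, edgeR), 36.2-fold in stable tumours and 12.2-fold in non-responders. Between outcome groups it was 2.49-fold higher in responders than in non-responders (log2 1.32 ± 0.52, adjusted p = 0.0399), a call that ended without any 1 of non-responders 1 to 5 or responders 1, 3 and 5 (0.0572 to 0.0817). Without non-responder 6 the difference was 2.25 with an adjusted p of 0.00062. Stable tumours exceeded non-responders by 1.57 ± 0.55 (adjusted p = 0.0553), and by 2.5001 with an adjusted p of 0.000831 without non-responder 6. With all tumours that difference passed in DESeq2 (1.58, adjusted p = 0.0181) and in the authors' RPKM with limma (2.16, adjusted p = 0.0062). It also passed with protein-coding genes only (1.56, adjusted p = 0.0478, edgeR).

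Lgals9 (chromosome 11, 78962974 to 78984946, minus strand) encodes galectin-9, a sugar-binding protein that binds TIM-3. Its 25 levels spanned 3.17-fold, the narrowest range of the 10 genes. Controls held 40.2, 41.7, 35.2, 35.7 and 45.1 CPM, non-responders 72.6, 41.5, 39.9, 54.2, 43.1 and 53.6 CPM, stable tumours 44.1, 45.3, 48.7, 47.6, 53.7 and 51.3 CPM, and responders 27.0, 31.3, 35.1, 22.9, 48.6, 26.6, 27.7 and 23.2 CPM. Of 8 responders 7 lay below every tumour of the other 3 groups, and responder 5 was the exception. Lgals9 fell in responders, with log2 fold changes of -0.74 ± 0.15 against non-responders (adjusted p = 0.000511, edgeR), -0.67 ± 0.15 against stable tumours (adjusted p = 0.0032) and -0.38 ± 0.16 against controls (adjusted p = 0.0357). The last call ended without any 1 of controls 1, 2 and 5 or responders 4, 6, 7 and 8 (0.0583 to 0.0877) and in the authors' RPKM (-0.24, adjusted p = 0.116, limma). Stable tumours and non-responders did not pass against controls, at 0.29 ± 0.17 (adjusted p = 0.168) and 0.36 ± 0.17 (adjusted p = 0.156), although stable tumours passed when fitted with controls alone (adjusted p = 0.00977).

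The 7 low responders had protein-coding shares of 23.8 to 74.3%, below every other library, and responder 5, with 87.0%, had a Lgals9 level inside the range of non-responders and stable tumours. With that share in the model the Lgals9 differences were -0.51 against non-responders (adjusted p = 0.0566, edgeR), -0.44 against stable tumours (adjusted p = 0.343) and -0.13 against controls (adjusted p = 0.568), so all 3 calls ended. When only protein-coding genes entered the filter and scaling, the difference from controls was -0.35 and remained called (adjusted p = 0.0453). Responder 5 also stood apart from the other 7 for Tigit, where it was lowest at 1.53 CPM, and for Cd96, where it was highest at 16.0 CPM, while its Cd274 level of 165 CPM lay in the middle of the group. Only responder 5 overlapped the other groups in that share, so the covariate and the group can hardly be told apart. The part of library makeup in these differences was not tested beyond this covariate and this rescaling.

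**Figure D3:**
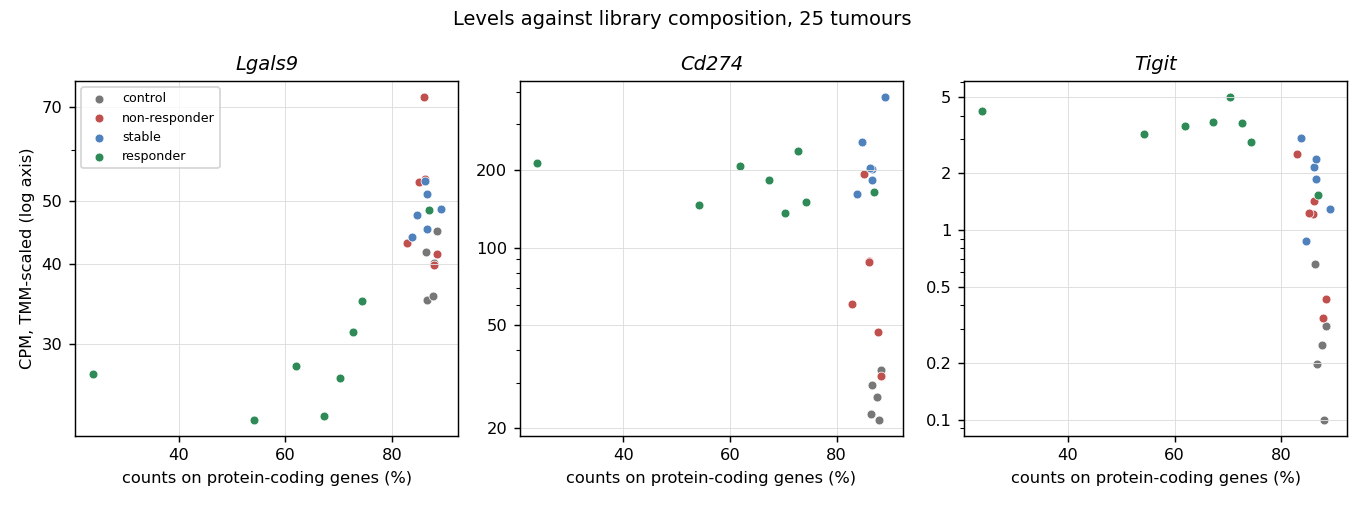
Level of Lgals9, Cd274 and Tigit (CPM on a log axis) against the share of counts on protein-coding genes in percent, 1 point per tumour, coloured by group. The 7 tumours at 23.8 to 74.3% are responders and hold the lowest Lgals9 levels, whereas their Cd274 levels overlap those of stable tumours.

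The promoters of the 3 ligand genes are shown because Lgals9 differed in direction from the neighbouring pair Cd274 and Pdcd1lg2. Windows of 300 bases, from 250 before to 50 after the RefSeq start (GRCm38.p6), were searched on both strands for the gamma activated site TTCNNNGAA and the interferon stimulated response element, GAAA followed by any 2 bases and GAAA. The first was found in 8.3% and the second in 3.44% of 32851 promoters. Of the 9 checkpoint genes with an entry, Lgals9 held 2 matches to the response element, starting 55 bases before and 15 bases after the start, and Cd96 held 1 match to TTCNNNGAA, 79 bases before it. The windows of Cd274, Pdcd1lg2 and the remaining 5 did not contain these letters, and no 2 matches overlapped. Sites outside the windows or with other letters were not searched. Whether the matches have a part in the directions was not tested. The first 280 bases of each window follow, 5′ to 3′ on the gene's strand, with matches in capitals (they read in the reverse complement).
Lgals9, chr11:78984895-78985174, minus strand: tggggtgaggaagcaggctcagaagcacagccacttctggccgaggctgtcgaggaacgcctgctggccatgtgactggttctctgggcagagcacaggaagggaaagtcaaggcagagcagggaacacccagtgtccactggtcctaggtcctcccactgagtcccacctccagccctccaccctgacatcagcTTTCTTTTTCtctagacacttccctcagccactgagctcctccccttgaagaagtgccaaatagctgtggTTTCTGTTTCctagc
Cd274, chr19:29367188-29367467, plus strand: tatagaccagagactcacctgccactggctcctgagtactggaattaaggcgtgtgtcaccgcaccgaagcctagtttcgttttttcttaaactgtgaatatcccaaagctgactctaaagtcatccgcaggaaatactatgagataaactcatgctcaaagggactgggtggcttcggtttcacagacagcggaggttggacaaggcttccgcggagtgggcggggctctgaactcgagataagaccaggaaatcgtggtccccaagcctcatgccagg
Pdcd1lg2, chr19:29410669-29410948, plus strand: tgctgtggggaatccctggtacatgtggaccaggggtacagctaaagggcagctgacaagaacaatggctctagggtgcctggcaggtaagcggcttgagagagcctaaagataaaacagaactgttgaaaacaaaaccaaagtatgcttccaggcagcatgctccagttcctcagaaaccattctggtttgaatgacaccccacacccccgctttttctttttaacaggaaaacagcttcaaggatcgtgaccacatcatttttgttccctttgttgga

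**Figure D4:**
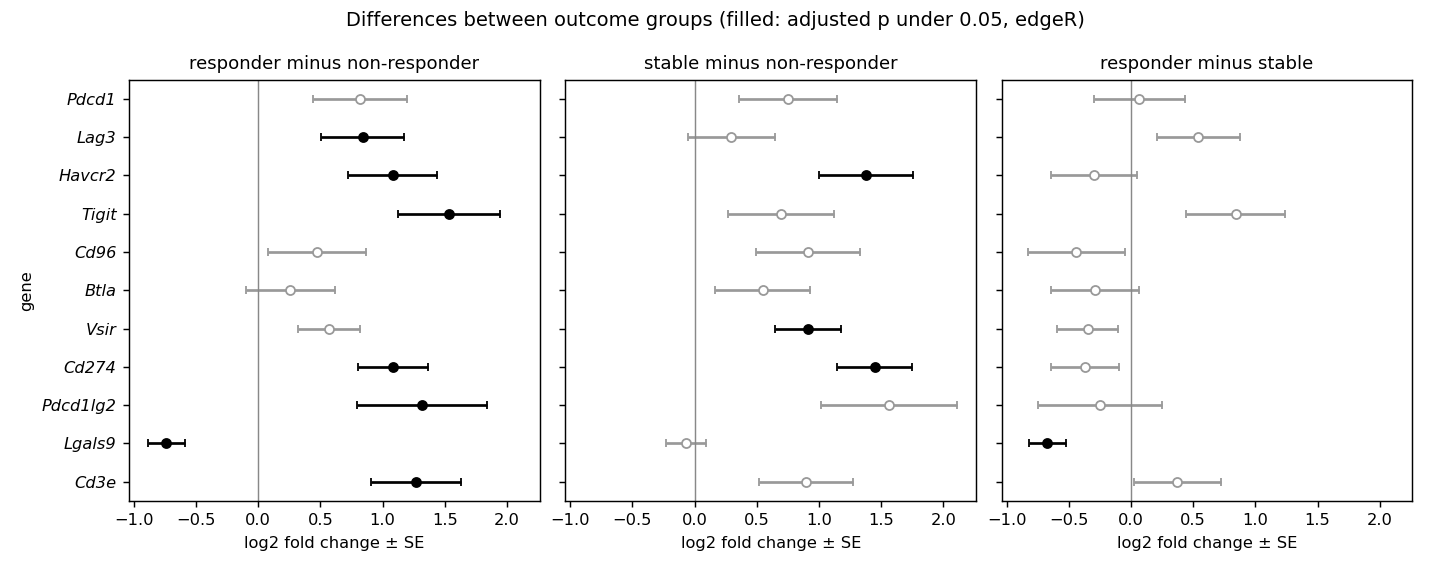
Log2 fold change ± SE of each checkpoint gene and of Cd3e in the 3 comparisons of outcome groups (filled points, adjusted p under 0.05 by edgeR; open points, not called). Lgals9 is the gene called lower in both panels that contain responders, and Cd274 and Havcr2 are called higher against non-responders in both panels that contain them.

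To set the T cell receptors against T cell transcript, their counts were divided by those of Cd3e, a subunit of the T cell receptor complex. These receptors were Pdcd1, Lag3, Havcr2, Tigit, Cd96 and Btla, and log2 ratios were tested with limma over all genes. Some are also carried by other cells, as Havcr2 is by dendritic cells and macrophages, so the ratios are not levels per T cell. Cd3e was at 0.49995 to 2.12 CPM in controls, 1.33 to 12.1 CPM in non-responders, 7.66 to 22.2 CPM in stable tumours and 11.6 to 25.0 CPM in responders. It rose 2.40-fold in responders against non-responders (adjusted p = 0.0067, edgeR), and in that comparison only Cd2 and Cd3e of the 9 T cell genes were called, with a list median of 0.51 on the log2 scale. With the protein-coding share in the model the Cd3e call ended (log2 1.34 ± 0.46, adjusted p = 0.0630, edgeR). With protein-coding genes only, Cd3e remained called (adjusted p = 0.00573, edgeR).

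Relative to Cd3e, 2 of the 6 receptors fell in responders against non-responders, Btla and Cd96, beside 70.5% of all genes called and 69.8% called lower, Cd3e itself having risen. The Btla ratio was 0.595 to 1.29 in non-responders (median 0.880) and 0.219 to 0.688 in responders (median 0.348), with 2.29, 0.486, 1.49, 1.72 and 1.94 in controls 1 to 5. Of 8 responders 7 lay below every non-responder, and the ratio fell (log2 -1.28 ± 0.41, adjusted p = 0.00643, limma). The Cd96 ratio was 0.437 to 1.09 in non-responders (median 0.647) and 0.272 to 0.381 in 7 responders, with responder 5 at 1.09. It fell as well (log2 -0.86 ± 0.39, unadjusted p = 0.0350, adjusted p = 0.0497, limma), a call that ended when any 1 of 11 of the 14 tumours was left out. All ratios share the Cd3e counts, so the share of genes called, and with it the adjustment, moves with Cd3e. Divided by the sum of Cd3d, Cd3e, Cd3g and Cd247, neither fall passed (Btla -0.60, adjusted p = 0.148, and Cd96 -0.18, adjusted p = 0.626, limma). In responders against stable tumours, where 0.388% of all genes were called, the Cd96 ratio differed by -0.98 ± 0.39 (unadjusted p = 0.0162, adjusted p = 0.171, limma). The Btla ratio differed there by -0.87 ± 0.41 (unadjusted p = 0.0408, adjusted p = 0.227, limma). For these ratios the exact permutation test gave an unadjusted two-sided p of 0.00866 and 0.0160.

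The PD-1 ratio was 0.742, 1.05, 0.710, 0.612 and 0.542 Pdcd1 counts per Cd3e count in the controls, 0.389 to 0.894 in non-responders (median 0.498), 0.329 to 0.915 in stable tumours (median 0.519) and 0.259 to 0.615 in responders (median 0.431). The 4 groups overlapped, and on the counts limma called the ratio in none of the 6 comparisons. The responder difference from non-responders was -0.39 ± 0.38 (adjusted p = 0.361, limma), and 0.29 ± 0.33 (adjusted p = 0.486) against the 4 CD3 genes, so its direction turned with the denominator. The difference from controls was -0.79 ± 0.40 (adjusted p = 0.0589, and 0.0445 without control 5), with an unadjusted two-sided p of 0.00388 in the exact permutation test. In the authors' RPKM it was called (-0.85, adjusted p = 0.0446, limma).

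The Lag3 ratio was 0.432 to 0.598 in stable tumours and 0.665 to 0.963 in non-responders, so every stable tumour lay below every non-responder, as held for 4.61% of all genes. The difference of -0.61 ± 0.39 did not pass over all genes (adjusted p = 0.161, limma), while the exact permutation test of this 1 ratio over the 12 tumours gave an unadjusted two-sided p of 0.00216, the smallest it can give. Responders held 0.406 to 0.640 apart from responder 1 at 1.17. The Havcr2 ratio ran from 2.10 to 7.45 in controls, from 1.05 to 2.65 in non-responders, from 1.09 to 5.01 in stable tumours and from 0.769 to 2.34 in responders. The Tigit ratio ran from 0.157 to 0.339, 0.123 to 0.270, 0.116 to 0.169 and 0.106 to 0.371 in the same order of groups, and all overlapped. Against the 4 CD3 genes the responder differences from non-responders of Lag3 and Havcr2 turned positive, at 0.23 and 0.42, and were not called by limma (adjusted p = 0.632 and 0.312).

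Against controls the ratios of Btla and Havcr2 fell in responders (log2 -1.94 ± 0.43, adjusted p = 7.6e-05, and -1.18 ± 0.45, adjusted p = 0.0145, limma), beside 92.9% of all genes called. Those of Btla and Lag3 fell in stable tumours (log2 -1.07 ± 0.46, adjusted p = 0.0272, and -0.83 ± 0.40, adjusted p = 0.0497), beside 92.6% of all genes. The Havcr2 call ended without control 1, whose ratio of 7.45 was the highest (-0.85, adjusted p = 0.0711), and with the protein-coding share in the model (-0.86, adjusted p = 0.163). In stable tumours the Btla call ended without control 1, 4 or 5 or stable tumour 1 (0.0565 to 0.0653), and the Lag3 call without any 1 of controls 1 to 4 or stable tumours 1, 2, 3, 5 and 6 (0.0627 to 0.0959). No ratio was called by limma in non-responders against controls, with 88.1% of all genes called, in stable tumours against non-responders, with 39.6%, or in responders against stable tumours, with 0.388%. Other settings gave calls that this fit did not. With the 4 CD3 genes as the denominator limma called Havcr2 (-1.16, adjusted p = 0.00476) and Btla (-0.90, adjusted p = 0.0249) lower in non-responders against controls, and Tigit lower in stable tumours against controls (-0.99, adjusted p = 0.0448). In the authors' RPKM limma called Btla lower in stable tumours against non-responders (-1.04, adjusted p = 0.0420). Without responder 5 the Cd96 ratio was called lower in responders against stable tumours (-1.21, adjusted p = 0.0472, limma). With Cd3e and all tumours, limma gave 0, 0 and 2 receptors at an unadjusted p under 0.05 in non-responders against controls, stable tumours against non-responders and responders against stable tumours, and the exact permutation test gave 1, 1 and 3. The controls rest on 15 to 54 Cd3e counts per library, which limits their ratios.

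**Figure D5:**
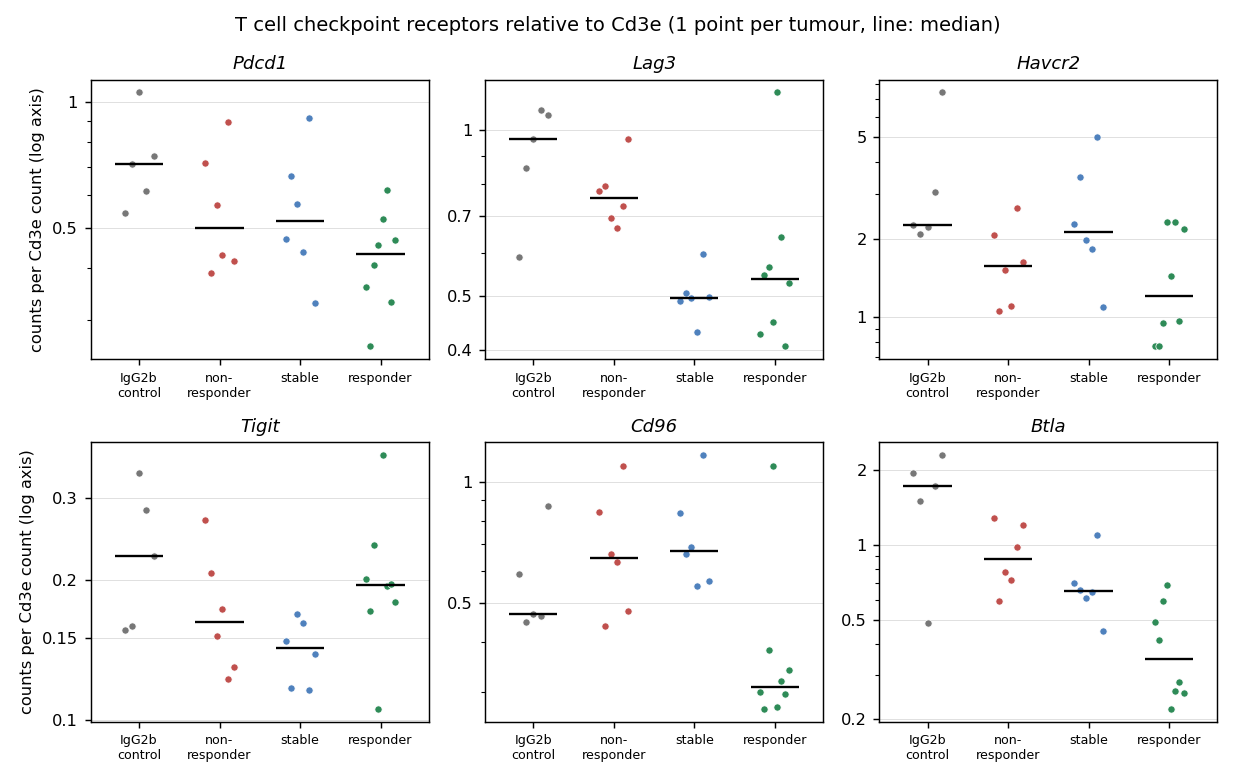
Counts of 6 checkpoint receptors per Cd3e count in every tumour (log axis, 0.5 added to both counts, line at the group median). Groups overlap in most panels, the Lag3 ratio of stable tumours lies below that of non-responders, and 7 responders lie at 0.272 to 0.381 for Cd96.

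Levels were compared between genes in the authors' RPKM (reads scaled by gene length and library size), which held 9 of the 10 genes. In controls Lgals9 led at 18.0 ± 1.81 RPKM (SD, n = 5), followed by Cd274 at 7.28 ± 1.37, Btla at 1.90 ± 0.590 and Havcr2 at 1.26 ± 0.303. Pdcd1, Pdcd1lg2, Lag3, Tigit and Cd96 were all under 1, from 0.569 ± 0.399 to 0.231 ± 0.110, and neighbours in that order did not differ beyond their SD. In responders the order was Cd274 at 51.6 ± 10.8 RPKM (SD, n = 8), Pdcd1lg2 at 16.0 ± 5.78, Lgals9 at 15.3 ± 2.70, Havcr2 at 8.95 ± 3.48 and Btla at 8.79 ± 6.30, with Tigit, Pdcd1, Lag3 and Cd96 between 3.96 ± 1.57 and 2.40 ± 1.08. The PD-L1 level thus passed that of galectin-9 in responders (51.6 against 15.3 RPKM) and in stable tumours (58.7 ± 17.7 against 21.5 ± 1.46 RPKM, SD, n = 6), and both were alike within their SD in non-responders (22.8 ± 14.2 and 23.5 ± 5.96 RPKM). Vsir had no RPKM row, and its mean over the 25 tumours per kilobase of annotated exon was 18.9 CPM, beside 38.3 for Cd274, 19.4 for Lgals9, 6.92 for Havcr2 and 2.67 for Pdcd1. On that scale Btla, at 1.81 CPM, was the lowest of the 10, so its place in the order differed between the 2 tables. For Btla the 2 tables matched least well. Its counts per M counts without TMM scaling, divided by RPKM, varied 7.76-fold between tumours, against 3.28-fold to 5.10-fold for the other 8. These spreads include differences in library scale, as the TMM factors left out here ran from 0.339 to 1.19.

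Across the 25 tumours the checkpoint genes varied together in pairs, given here as Spearman's rho of log2 CPM, a description over points that share group, library and depth. The highest were Havcr2 with Vsir at 0.929, Lag3 with Tigit at 0.926, Cd96 with Btla at 0.912 and Pdcd1 with Havcr2 at 0.903. After each group's mean was removed these were 0.789, 0.849, 0.752 and 0.769. Lag3 and Tigit were also the 2 receptors nearest to Cd3e, at 0.864 and 0.918, while Cd274 and Pdcd1lg2 stood at 0.592 and 0.591 with it and at 0.797 with each other. Lgals9 ran from -0.391 with Tigit to 0.395 with Cd96, and with group means removed from 0.094 with Tigit to 0.700 with Havcr2.

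Among 13592 other protein-coding genes with a mean of at least 1 CPM, the 3 closest to each checkpoint gene over the 25 tumours were taken by Spearman's rho. Pdcd1 was closest to Htr7, at 0.937, then Cemip2 and Tnfaip8l3. Lag3 was closest to Fam102a, at 0.948, then Pde7a and Map4k2, and Tigit to Nlrc3, at 0.961, then Marf1 and Tiam2. Cd96 was closest to Cd3g, a CD3 subunit, at 0.987, then the chemokine receptor Cxcr6 at 0.983 and the T cell adaptor Sit1 at 0.971. Btla was closest to Bcl2l14, at 0.961, then Ms4a4b and Gimap4. Havcr2 was closest to Pla2g7, Cybc1 and the lysosomal protease gene Ctss, at 0.969, 0.969 and 0.968. Vsir was closest to Selplg at 0.988, then Entpd1, which encodes CD39, and Abcg1. Cd274 was closest to the kinase gene Pim1, at 0.956, then Tbc1d9 and Hk3, and Pdcd1lg2 to the integrin gene Itgax, which encodes CD11c, at 0.974, then Slc7a2 and Tarm1. Lgals9 had the lowest leading value, 0.911 with Ifi27l2a, then Jmjd8 at 0.898 and the interferon-induced Rtp4 at 0.894.

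The partner list held 20 ligands, receptors and phosphatases, of which 18 were tested. Most work with the checkpoint proteins, while others, as Cd200 and its receptor gene Cd200r1, belong to separate checkpoint pathways. In responders against non-responders 5 were called higher and 4 lower, beside 48.9% of all genes called. Igsf11, a ligand of VISTA, fell (log2 -2.97 ± 0.40, adjusted p = 2.1e-05, edgeR) from 23.1 to 2.91 mean CPM. Hmgb1, a nuclear protein that binds TIM-3, fell (-1.31 ± 0.20, adjusted p = 7.5e-05). Pvrig, an inhibitory receptor for nectin-2, rose (1.26 ± 0.47, adjusted p = 0.0286), and Cd80, a ligand of CD28 and CTLA-4 that also pairs with PD-L1, rose (1.24 ± 0.27, adjusted p = 0.00101). In stable tumours against non-responders 4 were higher and 4 lower, beside 14.9% of all genes called, led by Igsf11 (-2.77), the LAG-3 ligand gene Lgals3 (1.22), Cd80 (1.10) and the receptor gene Cd200r1 (1.08). In responders against stable tumours, where 38.2% of all genes were called, 3 were lower, Ptpn6 (-0.86), Hmgb1 (-0.65) and Ptpn11 (-0.22), the first and last of which encode the phosphatases SHP-1 and SHP-2, and edgeR and DESeq2 each called 0 higher. At an unadjusted p under 0.05, 4 of the 18 passed there in edgeR. With the protein-coding share in the model edgeR called 0 of all 18031 genes in responders against stable tumours, so these 3 calls ended. That share can hardly be told apart from the responder group, since only responder 5 overlapped the other groups in it.

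Against controls the genes of the partner list moved both ways. In responders 8 rose and 5 fell, beside 65.0% of all genes called, led by Igsf11 (-4.20), Cd80 (3.05), Pvrig (2.92) and Cd160 (2.82), a second receptor for the herpesvirus entry mediator. In stable tumours 10 rose and 4 fell, beside 41.8% of all genes, led by Igsf11 (-4.01), Cd160 (3.26), Cd80 (2.92) and Cd226 (2.74), the activating rival of TIGIT and CD96. In non-responders 7 rose and 1 fell, beside 13.9% of all genes, with Cd160 (2.43), Cd226 (1.97), Cd80 (1.81) and Tnfrsf14 (1.68), the herpesvirus entry mediator itself, leading the list.

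The next list held 10 genes of the interferon gamma route to PD-L1 and of its upkeep at the cell surface. In responders against non-responders edgeR and DESeq2 each called 0 of them, beside 48.9% of all genes called by edgeR. Of the 10, 0 had an unadjusted p under 0.05 in edgeR, and their median log2 fold change was 0.07. Cd274 itself was called higher in that comparison (adjusted p = 0.00375, edgeR), but not with the protein-coding share in the model (adjusted p = 0.0720). Whether this route has a part in the Cd274 difference was not tested. Mean Ifng was 2.86 CPM in non-responders and 3.57 CPM in responders. In stable tumours against non-responders, with 14.9% of all genes called, 5 rose, among them Irf1 (0.88, adjusted p = 0.0372, edgeR), Jak2 (0.54), Cmtm6 (0.47), which holds PD-L1 at the membrane, and Jak1 (0.46). There DESeq2 called 7 of the 10 higher, and 9 had an unadjusted p under 0.05 in edgeR. In responders against stable tumours, with 38.2% called, 6 fell, among them Jak1 (-0.52, adjusted p = 0.0031, edgeR), Jak2 (-0.43) and Stat3 (-0.39), while Cd274 differed by -0.37 ± 0.27 (adjusted p = 0.292). None of these 6 calls remained with the protein-coding share in the model, which can hardly be told apart from the responder group. Against controls Ifng and Irf1 rose in all 3 outcome groups, Ifng by 4.00, 4.76 and 3.66 in responders, stable tumours and non-responders, and Irf1 by 2.23, 2.74 and 1.86. Ifngr1 rose in responders (0.80) and stable tumours (1.28), and Jak2 in non-responders (0.68). These comparisons share control tumours or non-responders with those of the checkpoint genes.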

How the data were processed

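RNA from 25 tumours was sequenced with a stranded total RNA kit, per the labels' protocols, although the labels name the molecule polyA RNA. Per the submitters' processing notes the tools included bcl2fastq 2.17, Trimmomatic, STAR 2.5.1 and RSEM 1.2.22, with build mm10. The authors deposited RSEM's expected counts per gene, of which 5.64% were not whole, and a separate RPKM table whose gene lengths and scaling the sources used here do not give. Gene IDs matched GENCODE M21 (GRCm38). Counts had been foreseen as whole in the test plan, so the expected counts were rounded. Totals were 8.765 to 34.311 M counts.

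Groups came from sample titles, and replicate numbers only name tumours. Genes passing edgeR's filterByExpr (18031) were scaled by TMM and tested with edgeR 4.0.16 (R 4.3.3), quasi-likelihood with robust dispersion, 4 group means over all tumours, 6 contrasts, Benjamini-Hochberg adjustment over all genes and a threshold of 0.05. Ratios to Cd3e were log2((count + 0.5)/(Cd3e count + 0.5)), tested over 18030 genes with limma 3.58.1. DESeq2 1.42.0, RLE scaling, no filter, only the groups compared, protein-coding genes only, a protein-coding share covariate, other denominators and pseudocounts, exact permutation tests and leaving out each tumour were the alternatives, and limma on log2(RPKM + 0.1) for genes with a mean of at least 0.1 was added after seeing the data. Both main fits were tested on simulated data. The genes and lists were chosen with earlier results of these data known. Named were all 10 genes and Cd3e, the 4 called members of the partner list and of the PD-L1 induction list with the largest change in each comparison (1 of them is not reported here), and for likeness the 3 protein-coding genes of at least 1 CPM with the highest rho. Promoters came from RefSeq, and Lag3 had no entry.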

Additional observations from a re-analysis of the deposited data

Results flagged for a closer look

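Within each group the gap of the highest or lowest tumour to its neighbour was compared with the group's range, and 5 of 68 groups of values held a tumour that stood apart by Dixon's 95% criterion, where chance flags about 1 in 20. Pdcd1lg2, the PD-L2 gene, was at 10.57 CPM in responder 7, while the next lowest responder was at 29.05 CPM. Tigit was at 1.528 CPM in responder 5, with the next responder at 2.899 CPM. For Cd96 the same tumour had the highest ratio to Cd3e, 1.095, with the next responder at 0.3812. The Lag3 ratio to Cd3e was 1.171 in responder 1, the library with the lowest protein-coding share (23.8%), and 0.6399 in the next. Among controls, control 2 had a Btla ratio of 0.4862 beside 1.493 in the next lowest.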

How the results depend on the processing

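No paired analysis was possible because the replicate numbers follow accession order and pair no tumours. Of the 10 genes, 6 were called in responders against non-responders. This became 4 without the low-count filter, 1 with each library's protein-coding share in the model (the covariate) and 3 with only the groups compared. It became 7 with protein-coding genes only, 7 in the authors' RPKM, 8 in DESeq2 and 4 to 8 with 1 tumour left out. Vsir had no RPKM row, so counts of levels called in RPKM are of 9 genes, here and below. In stable tumours against non-responders the 3 became 2 with only the groups compared and 2 to 6 with 1 left out. They became 4 with protein-coding genes only, 4 in DESeq2 and 4 in the authors' RPKM. In responders against stable tumours the 1 became 0 with the covariate, 3 with only the groups compared, 2 in the authors' RPKM and 1 to 2 with 1 left out. The 9 in non-responders against controls became 5 with only the groups compared. Among ratios to Cd3e, the 2 called in responders against non-responders became 1 with a pseudocount of 1, 0 with the 4 CD3 genes, 0 with the covariate, 1 in RPKM and 1 to 2 with 1 left out. In stable tumours against non-responders the 0 became 1 by exact test and 1 in RPKM, and in responders against stable tumours 3 by exact test and 0 to 1 with 1 left out. Against controls the 2 in responders became 4 by exact test, 3 in RPKM and 1 to 4 with 1 left out. The 2 in stable tumours became 1 with a pseudocount of 1, 3 with the CD3 genes, 3 by exact test, 3 in RPKM and 0 to 2 with 1 left out. The 0 in non-responders became 2 with the CD3 genes, 1 by exact test and 0 to 1 with 1 left out.

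Directions of uncalled differences turned in these cases (log2). With the covariate, responders minus stable tumours gave Havcr2 0.074, Cd96 0.075 and Btla 0.23, and ratios of -0.26 for Lag3 and -0.031 for Tigit, while responders minus non-responders gave ratios of 0.041 for Havcr2 and -0.30 for Tigit. With the CD3 genes, responders minus non-responders gave Pdcd1 0.29, Lag3 0.23 and Havcr2 0.42, responders minus stable tumours Pdcd1 0.40 and responders minus controls Tigit 0.26. In RPKM, responders minus stable tumours gave 0.42 for Btla and 0.012 for its ratio, and non-responders minus controls -0.036 for the Cd96 ratio. With 1 tumour left out, stable minus non-responders ran from -0.13 to 0.061 for Lgals9, -0.17 to 0.13 for the Pdcd1 ratio and -0.011 to 0.28 for the Cd96 ratio, and responders minus stable tumours from -0.0015 to 0.12 for Pdcd1. Over single genes and ratios, 566 values under other settings kept direction and side of the threshold, as did 1201 with 1 tumour left out.

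The number of all genes called moved too. It went from 8823 to 1810 in responders against non-responders and from 6891 to 0 in responders against stable tumours with the covariate, from 2500 to 1559 in non-responders against controls with only the groups compared, and with 1 tumour left out it ran from 1570 to 4237 in that comparison and from 1470 to 3804, beside 2693, in stable tumours against non-responders. Genes called as ratios went from 12705 to 6410 in responders against non-responders and from 7145 to 11602 in stable tumours against non-responders with the CD3 genes, and from 1014 to 11836 in the latter with 1 left out. In responders against stable tumours the 70 became 105 with a pseudocount of 1, 1075 with the CD3 genes, 0 with the covariate, 32 in RPKM and 0 to 1318 with 1 left out. The cause was not tested, except that fits of only the groups compared hold fewer tumours. Tigit rests on 3 to 18 counts in controls and Cd3e on 15 to 54, which limits their fold changes and ratios there.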
